A study of Mus musculus with 27 samples.

Results

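The microRNAs numbered miR-6336 to miR-6420 are a block of late-numbered mouse microRNAs, that is, sequences entered in the miRBase catalogue long after the conserved families. The members were all rows of the 4 deposited microRNA tables whose mature name carries a number in this range. They are 88 loci with 88 names and 85 numbers, of 2035 loci in all. Cells were from CJ7, a line of mouse embryonic stem (ES) cells, and were cultured in serum with LIF, a cytokine that keeps ES cells undifferentiated. The groups were wild-type cells and cells with both copies of Eed, Ezh2 or Jarid2 lost (Eed-/-, Ezh2-/- and Jarid2-/-), with no treatment named for the small RNA samples. Eed and Ezh2 are core subunits of PRC2, the Polycomb complex that methylates histone H3 at silent genes, and Jarid2 is a cofactor that recruits it. Of 27 samples, 7 were small RNA libraries. The Jarid2-/- cells had 1 such library and each other genotype had 2. The sources used here do not say whether a mutant line was a single clone.

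A microRNA is cut from a hairpin in a longer transcript by Drosha and Dicer and loaded into an Argonaute protein, which it guides to messenger RNAs. Target recognition rests mainly on the seed, bases 2 to 8 counted from the 5′ end, so microRNAs with the same seed are placed in 1 family. Numbers are given out in the order of submission, and many late entries rest on low read numbers in deep sequencing. ES cells are known for high levels of the miR-290 family.

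Each genotype had 1 count column, so no spread between replicates could be measured and no difference below has a replicate check. The wild-type column summed to 23793733 microRNA counts, that of Eed-/- to 42293019, that of Ezh2-/- to 32074712 and that of Jarid2-/- to 8485806. Levels are given in CPM, each count scaled to 1000000 microRNA counts in its column. Intervals are 95% intervals that cover counting error only, and reads from PCR-amplified libraries are not independent molecules. The highest locus of every column belonged to the miR-290 cluster (miR-294-3p in 3 columns and miR-293-3p in Eed-/-), at 133783 to 164809 CPM. The messenger RNAs of Eed, Ezh2 and Jarid2 were not analysed here, so the genotype labels had no check.

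The mature sequences below, read from the deposited tables, are those of the members on which the abundance and the differences between genotypes turn. Capitals mark the seed.
miR-6408: cACAUGGGcuugcaugggaugguc
miR-6410: uGGCUCAGggacuacucugugc
miR-6366: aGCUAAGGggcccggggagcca
miR-6339: gAUGCCUUuguccucaguguuag
miR-6406: cGCGACCUcaggcugacucaug
miR-6389: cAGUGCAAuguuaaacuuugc
miR-6375: gAAUUGGCugacuguauuccaaa
miR-6398: gUCAAUGAaccucagguaagg
miR-6414: cUAAGUUCugagcugagucuug
miR-6347: cAGUGCGGcuggcuggagaugc
Of these, miR-6410 carries the seed GGCUCAG of miR-24-3p, and miR-6389 carries the seed AGUGCAA of the miR-130 and miR-301 family. The other 8 seeds belong to no microRNA of the conserved families compared here. That of miR-6339 is also the seed of miR-532-5p, which was not among those families.

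Most members were rare or unseen in these cells. Of the 88, 35 (39.8%) had 0 counts in all 4 columns, against 11 of 395 loci of conserved families (2.78%) and 302 of all 2035 loci (14.8%). Among the 205 loci numbered 7094 to 10000 the share was 37.1%, so a large undetected part was not particular to the members. A count of 0 allows a level of up to 0.126 CPM for wild-type cells, 0.0709 for Eed-/-, 0.0935 for Ezh2-/- and 0.354 for Jarid2-/-, so very low levels were not detectable at this depth. Another 19 members had at most 9 counts in any column and 12 had at most 49, while 22 reached 50 counts. At least 10 counts were seen for 25 members of the wild-type column, 30 of Eed-/-, 26 of Ezh2-/- and 17 of Jarid2-/-, the shallowest column. The conserved loci with as many were 314, 338, 314 and 285 in the same order.

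Set against conserved microRNAs, the members were rare as a group. Their median level was 0.0420 CPM in wild-type and 0.0236 CPM in Eed-/-, which is 1 count in either column, and 0 in Ezh2-/- and Jarid2-/-. The conserved loci had medians of 19.1, 24.6, 13.9 and 15.1 CPM in wild-type, Eed-/-, Ezh2-/- and Jarid2-/-. All members together held 0.0423% of microRNA counts in wild-type (95% Clopper-Pearson interval 0.0414% to 0.0431%), and conserved loci held 46.7%. Loci numbered miR-6896 to miR-7093, a later block of 402, were rarer at the upper end, since 51 (12.7%) had 10 counts in wild-type against 25 members (28.4%). Yet only 16.9% of those loci had 0 counts in every column. Per locus the members thus had both a larger undetected and a larger measurable part than that block. The block has 402 loci for 198 numbers and the members 88 for 85, so second arms weigh more in its shares. How far this sets the difference was not tested. Bands 3001 to 6335 and 6421 to 6895 lie on either side of the members. There 30.5% and 31.25% of loci had 10 counts in wild-type, so the members' measurable part was not larger than in these.

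**Figure D1:**
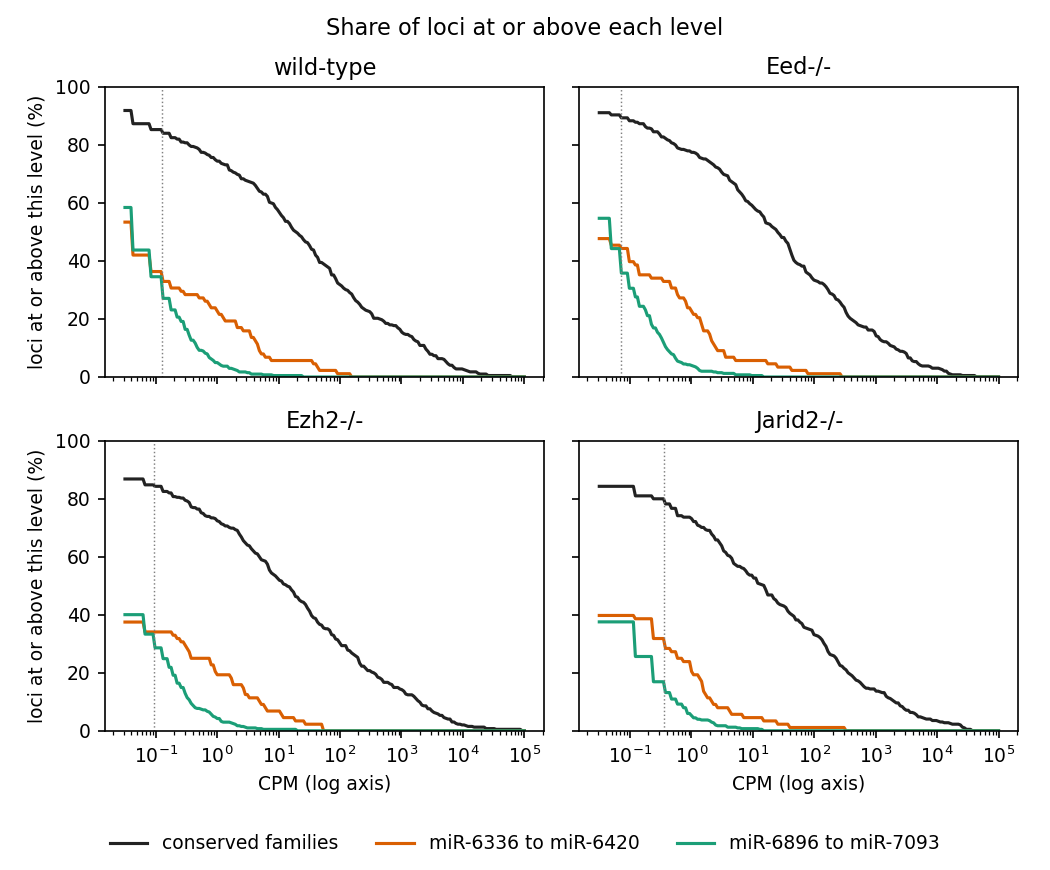
Share of loci (vertical axis, %) at or above each level (horizontal axis, CPM, log scale) in the 4 genotypes, for 395 conserved loci, the 88 members and 402 loci numbered miR-6896 to miR-7093; the dotted line is 3 counts in that column. The member curve lies below the conserved curve in every genotype and above that of the later block from about 1 CPM on.

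A few members reached the range of conserved microRNAs. The highest member in wild-type was miR-6410, with 3646 counts (153 CPM), at rank 285 of all loci, and 113 of the 395 conserved loci lay above it. In Jarid2-/- the highest was miR-6408 with 2634 counts (310.4 CPM), at rank 184, below 85 of the conserved loci. The most abundant conserved locus in wild-type, a copy of miR-19b-3p, stood at 62268 CPM, and miR-92a-3p at 24772 CPM. No member came near those levels in any column.

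The members resembled conserved microRNAs at the 5′ end more often than other late-numbered sequences did. Of 88 members, 16 (18.2%) carried the seed of a conserved microRNA, against 10 of 400 sequences (2.50%) numbered miR-6896 to miR-7093. Among all 1166 sequences numbered above 500 outside the members and the conserved families, which include those 400, the share was 2.32%. A start of at least 8 identical bases was shared with a conserved microRNA by 14 members (15.9%), against 0.5% and 1.03% of these comparison sets. For at least 10 identical bases the shares were 7.95%, 0 and 0.343%.

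**Figure D2:**
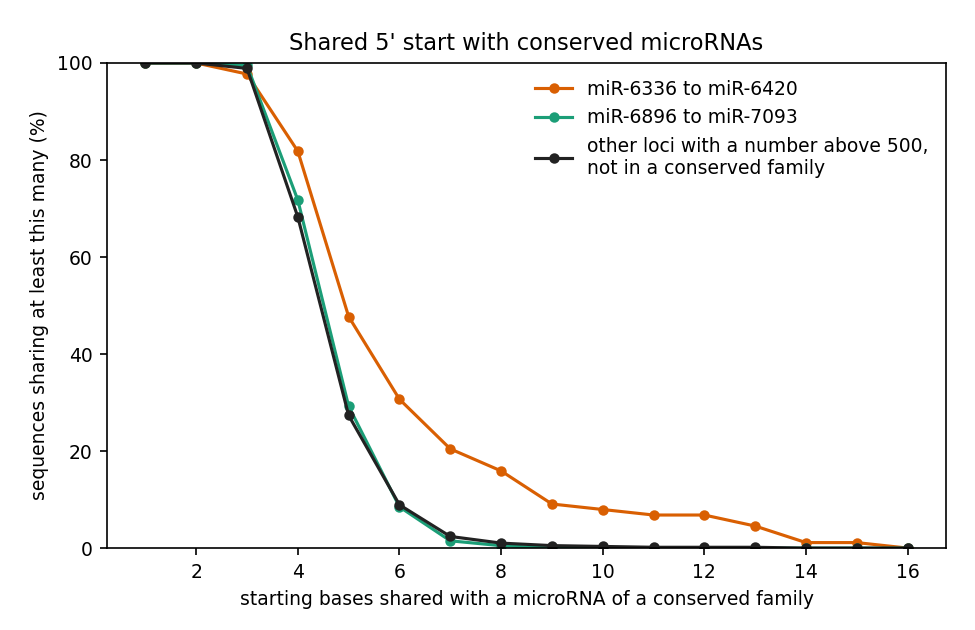
Share of distinct sequences (vertical axis, %) that share at least a given number of starting bases (horizontal axis) with any microRNA of a conserved family, for the 88 members, 400 sequences numbered miR-6896 to miR-7093, and all 1166 others above number 500. The member curve leaves the others from 4 bases on and is at 15.9% for 8 bases.

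Members also shared seeds with each other. The 88 sequences held 74 distinct seeds, and 24 members had a seed that another member also had. The largest group had the seed GGCUCAG of miR-24-3p (miR-6361, miR-6369, miR-6410 and miR-6413). Next came AGCAGCA of the miR-15 and miR-16 family (miR-6342, miR-6353 and miR-6419) and UGGGAAG, the seed of no conserved family compared here (miR-6368, miR-6404 and miR-6405). Pairs held AGUGCAA of the miR-130 family (miR-6341 and miR-6389) and CCCUGAG of the miR-125 family (miR-6367 and miR-6394). Another pair held GGAAUGU of miR-1a-3p and miR-206-3p (miR-6349 and miR-6382). Single members held the seeds of the miR-17 family (miR-6383), of miR-208a-5p and miR-208b-5p (miR-6415) and of miR-29b-2-5p (miR-6338). Of the 34 members with 10 counts in some column, 7 had a conserved seed, and so did 6 of the 35 at 0 everywhere.

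In 10 members the shared start with another microRNA of the tables ran to 10 bases or more, and with 17 bases it was longest for miR-6395. Among them, miR-6342 and miR-6419 share 10 bases with miR-322-5p, which was not among the conserved families compared here. The pairs below show where the likeness ends, with the shared 5′ stretch in capitals.
miR-6395: CUGGCCCUCUCUGCCCUguuua
miR-328-3p: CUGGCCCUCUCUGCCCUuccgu
miR-6389: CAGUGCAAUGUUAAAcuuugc
miR-130a-3p: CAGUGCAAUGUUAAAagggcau
miR-6369: UGGCUCAGUUCAGuguuggugag
miR-24-3p: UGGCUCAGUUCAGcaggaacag
miR-6341: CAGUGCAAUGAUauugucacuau
miR-130b-3p: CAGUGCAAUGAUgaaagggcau
miR-6353: UAGCAGCACGUAuuuauccuauu
miR-16-5p: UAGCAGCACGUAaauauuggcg
miR-6383: UAAAGUGCUGugucacggaca
miR-106b-5p: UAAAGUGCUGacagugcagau
In each pair the sequences part after the shared stretch, toward the 3′ end. No member sequence lay inside another sequence of the tables or held one. How the authors treated reads that fit more than 1 sequence is not given in the sources used here, and the part of such reads in any member's count was not tested.

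Beside its partner each of these members was a small fraction. miR-6389 had 110, 3163, 87 and 206 counts in wild-type, Eed-/-, Ezh2-/- and Jarid2-/-, against 309581, 687943, 368881 and 103385 counts of miR-130a-3p. It was thus 0.0355%, 0.460%, 0.0236% and 0.199% of that partner. The partner's log2 ratios to wild-type were 0.32, -0.18 and -0.09 in Eed-/-, Ezh2-/- and Jarid2-/-, where those of miR-6389 were 3.75, -0.60 and 2.17. For miR-6353 these values were 0.46, -0.53 and -0.18 beside 0.40, -0.47 and 0.55 for miR-16-5p. At 0.249 to 1.47 CPM, the 1 CPM added before the ratio pulls those of miR-6353 toward 0. Without it, miR-6353 was 1.84-fold higher in Eed-/- (1.08 to 3.25), where miR-16-5p was 1.32-fold higher. In Ezh2-/- it was 3.20-fold lower (1.34 to 8.45), where miR-16-5p was 1.38-fold lower. In Jarid2-/-, on 5 counts, it was 1.36-fold lower (0.489 to 4.64), where miR-16-5p was 1.47-fold higher. miR-6395 held 0.306% to 1.49% of the count of miR-328-3p. miR-6367 and miR-6382, whose partners are miR-125a-5p and miR-1a-3p, had 0 counts in every column.

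Their median length was 22 bases, as in the conserved and the later set, and their median G+C share was 52.4%, against 45.5% and 57.1%. U was the first base of 52.3% of members, a base that Argonaute proteins bind well, against 36.5% of conserved sequences and 50.5% of those numbered miR-6896 to miR-7093. The other sets list both arms of many hairpins, and the members do so for only 3 numbers. These shares therefore do not compare like strands.

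The members lay scattered over the genome. They were on 20 chromosomes, 14 of them on chromosome 1, with 44 on each strand. Only miR-6345 had a microRNA of another number within 10 kb. Of 74 members found in RefSeq's gene table (GRCm38.p6), 47 lay inside the span of a gene, 36 of them protein-coding, and 27 lay outside any. Strand and exons of these genes were not used here. In the mm9 coordinates of the deposited tables, miR-6408 is at chr10:60385825-60385848 and miR-6410 at chr10:77897548-77897569, both on the plus strand and outside RefSeq genes. miR-6366, at chr16:18165186-18165207 on the minus strand, is also outside a gene, 12685 bp from Rtn4r, which encodes a Nogo receptor. miR-6406, at chr11:68034419-68034440, lies within Ntn1, the gene of the guidance cue netrin-1. miR-6389, at chr7:64836440-64836460, lies within Gabra5, a GABA-A receptor subunit, and miR-6398, at chr4:123293736-123293756, within Macf1, a linker of actin and microtubules. miR-6375 is at chr6:85740197-85740219, outside a gene.

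RefSeq's miRNA table (GRCm38.p6) held 67 member hairpins. Folded with RNAfold, they had a median length of 106 bases and a median minimum free energy of -31.2 kcal/mol per 100 bases. The 176 conserved hairpins had 84 bases and -42.7 kcal/mol per 100 bases, and 179 hairpins numbered miR-6896 to miR-7093 had 66 bases and -38.8. Member hairpins were thus longer, with a weaker predicted energy per 100 bases. Not divided by length, the median energies were -33.6 kcal/mol for members, -35.75 for conserved hairpins and -26 for those numbered miR-6896 to miR-7093. The share of paired bases was not compared between these sets. A mature member lay toward the 5′ end of its hairpin 34 times and toward the 3′ end 36 times, and only 3 numbers were listed with both arms. The hairpins of miR-6408, miR-6410 and miR-6389, each among the leading members of at least 1 mutant by abundance, are shown with the mature sequence in capitals.
miR-6408: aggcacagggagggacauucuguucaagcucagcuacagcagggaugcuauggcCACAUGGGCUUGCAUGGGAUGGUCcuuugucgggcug
miR-6410: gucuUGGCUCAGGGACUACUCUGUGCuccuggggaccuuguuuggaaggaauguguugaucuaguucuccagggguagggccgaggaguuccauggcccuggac
miR-6389: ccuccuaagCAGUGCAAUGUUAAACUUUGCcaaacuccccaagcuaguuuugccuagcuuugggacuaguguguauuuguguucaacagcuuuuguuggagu
The product lies 3′ in miR-6408 and 5′ in miR-6410 and miR-6389. Predicted energies were -42.2, -40.8 and -28.7 kcal/mol per 100 bases.

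Across the genotypes the summed level of the members hid a turnover of its parts. Wild-type cells had 423 CPM of all members together, Eed-/- cells 471, Ezh2-/- cells 217 and Jarid2-/- cells 428. The ratio to wild-type was 1.11-fold in Eed-/- (1.09 to 1.14) and 1.01-fold in Jarid2-/- (0.974 to 1.05), and the sum was 1.95-fold lower in Ezh2-/- (1.89 to 2.01). These values depended on the scaling, since the Ezh2-/- sum was 1.17-fold lower with TMM factors and the Eed-/- sum 1.82-fold higher with the RPM denominators of the tables. They also depended on single members. Without miR-6408 the rest was 1.91-fold lower in Eed-/- (1.85 to 1.97) and 3.24-fold lower in Jarid2-/- (3.03 to 3.46). With miR-6389 left out as well, the rest was 3.03-fold lower in Eed-/- and 4.03-fold lower in Jarid2-/-. Without miR-6410 instead, the sum was 1.66-fold higher in Eed-/- and 1.56-fold higher in Jarid2-/-, and the Ezh2-/- sum was 1.64-fold lower.

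In wild-type the member counts were spread over 5 microRNAs. miR-6410 held 36.3% of them (35.3% to 37.2%), miR-6366 20.5%, miR-6339 10.7%, miR-6408 10.1% and miR-6406 8.39%. In Eed-/- miR-6408 held 57.7% and miR-6389 15.9%. In Jarid2-/- miR-6408 held 72.6% (71.1% to 74.0%) and miR-6410 held 1.63%. In Ezh2-/- miR-6410 (24.2%) and miR-6408 (24.0%) were level within their counting intervals.

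**Figure D3:**
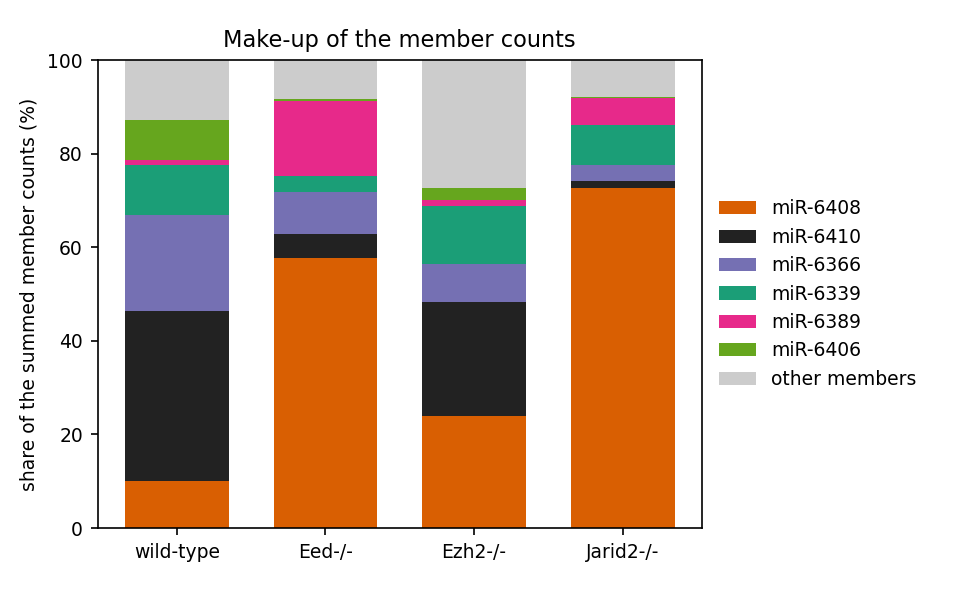
Stacked bars of the share of the summed member counts (%) held by 6 members and by all others together, in 1 column per genotype. miR-6408 goes from 10.1% in wild-type to 57.7% in Eed-/- and 72.6% in Jarid2-/-, and miR-6410 from 36.3% to 1.63% in Jarid2-/-.

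To compare single members, the log2 ratio of CPM plus 1 was taken between each mutant and wild-type, for loci with at least 10 counts in either column, and a ratio of at least 2-fold was called. This is a size rule with no test, and the 3 ratios share the wild-type column. In Eed-/-, 31 members could be compared, 5 were called higher and 8 lower, where 17.5% of all compared loci were higher and 15.0% lower. The members' median log2 ratio was -0.33, that of all loci 0.08. In Ezh2-/-, 2 of 29 members were higher and 5 lower, where the backgrounds were 4.90% and 24.5%, with medians of -0.30 for members and -0.44 for all loci. In Jarid2-/-, 3 of 26 were higher and 7 lower, where the backgrounds were 16.3% and 22.8%, with medians of -0.38 and -0.17.

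As shares, 16.1% of the compared members were higher and 25.8% lower in Eed-/-, 6.90% and 17.2% in Ezh2-/-, and 11.5% and 26.9% in Jarid2-/-, so the higher calls lay near the background. The split of calls depended on the scaling. In Eed-/- it was 6 higher and 4 lower with the RPM denominators of the tables, and 5 and 11 with median-ratio size factors. In Ezh2-/- it was 4 higher and 2 lower with TMM factors. These scalings moved the median of all loci too, to 0.52 in Eed-/- with RPM denominators and to 0.09 in Ezh2-/- with TMM factors. The members' medians then became 0.12 and 0.20. A scaling moves members and all loci nearly alike, so it could not check how the members stood against all loci.

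**Figure D4:**
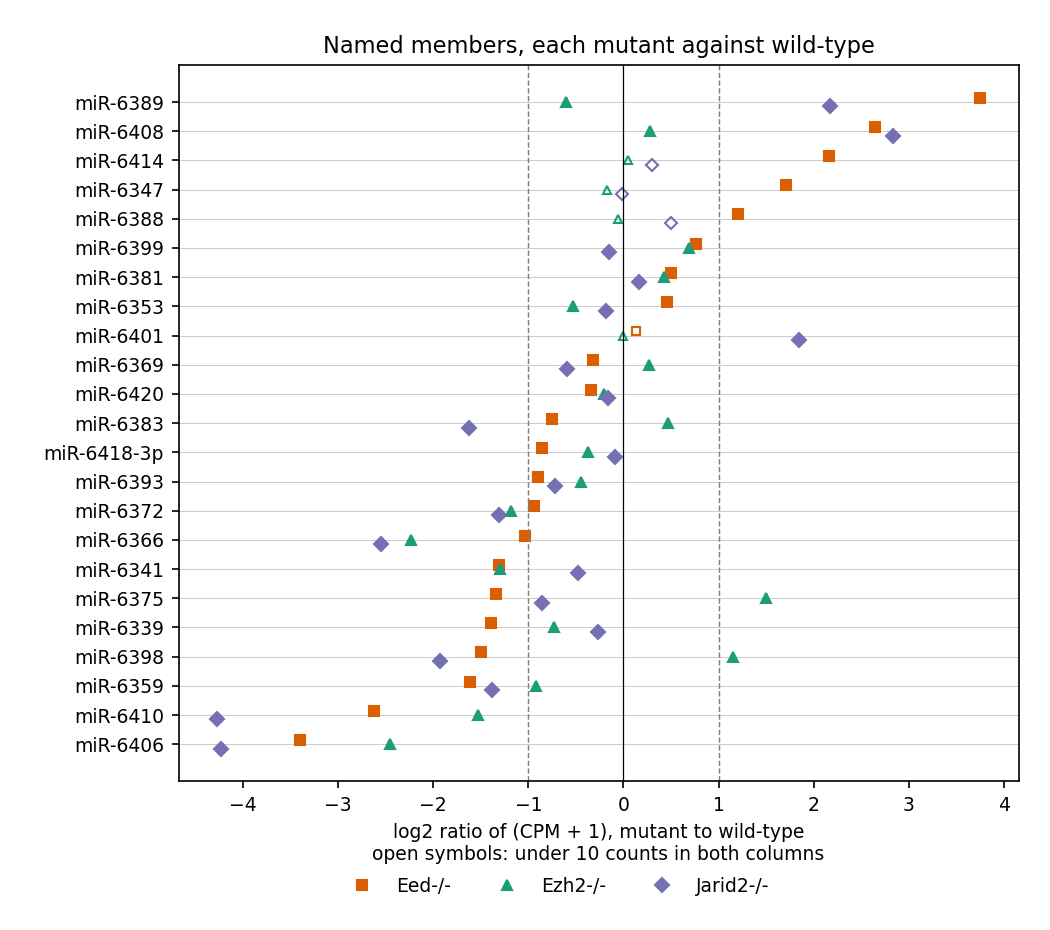
Log2 ratio of CPM + 1 (horizontal axis) of the 23 named members in each mutant against wild-type, 1 symbol per mutant; dashed lines mark 2-fold and open symbols had under 10 counts in both columns. miR-6406, miR-6410 and miR-6366 lie left of the lower line in all 3 mutants, and miR-6408 and miR-6389 right of the upper line in Eed-/- and Jarid2-/- only.

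Only 2 members were called higher in more than 1 mutant, and none in all 3. miR-6408 had 1017, 11491, 1673 and 2634 counts in the wild-type, Eed-/-, Ezh2-/- and Jarid2-/- columns, that is 42.7, 272, 52.2 and 310.4 CPM. Eed-/- and Jarid2-/- thus formed a high pair and wild-type and Ezh2-/- a low one. The ratio was 6.36-fold in Eed-/- (5.96 to 6.78), 7.26-fold in Jarid2-/- (6.75 to 7.81) and 1.22-fold in Ezh2-/- (1.13 to 1.32). miR-6389, the miR-130a-3p look-alike, stood at 4.62, 74.8, 2.71 and 24.3 CPM. It was 16.2-fold higher in Eed-/- (13.4 to 19.7) and 5.25-fold higher in Jarid2-/- (4.15 to 6.68), and 1.70-fold lower in Ezh2-/- (1.27 to 2.28), which was not called.

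Another 3 members were called higher in Eed-/-, where they came up from near 0. miR-6414 had 0, 147, 1 and 2 counts in wild-type, Eed-/-, Ezh2-/- and Jarid2-/-. Against a floor of 3 counts in the wild-type column, it was 27.6-fold higher in Eed-/-. Counting error of the 147 counts is left out of this value. miR-6347 had 3, 113, 0 and 1 counts, a 21.2-fold ratio in Eed-/- with an interval of 7.07 to 104. miR-6388 had 1, 59, 0 and 4 counts, and its 33.2-fold ratio had an interval from 5.73 upward. All 3 had fewer than 10 counts in the other columns. miR-6401 was the like case in Jarid2-/-, with 0, 4, 0 and 22 counts. Its level there was 20.6-fold the same floor in wild-type, with counting error of the 22 counts left out.

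Lower in all 3 mutants were miR-6410, miR-6406 and miR-6366. miR-6410, with the seed of miR-24-3p, had 3646, 1019, 1683 and 59 counts in wild-type, Eed-/-, Ezh2-/- and Jarid2-/- (153, 24.1, 52.5 and 6.95 CPM). It was 6.36-fold lower in Eed-/- (5.93 to 6.82), 2.92-fold lower in Ezh2-/- (2.76 to 3.10) and 22.04-fold lower in Jarid2-/- (17.05 to 29.0). miR-24-3p itself, which shares its first 8 bases, had log2 ratios of -0.69, -0.87 and -1.29, so miR-6410 was 2.53% of its count in wild-type and 0.281% in Jarid2-/-. With TMM factors the log2 ratio of miR-6410 in Ezh2-/- was -0.81, which was not called.

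miR-6406, inside Ntn1, went from 844 counts in wild-type to 104, 182 and 8, or from 35.5 CPM to 2.46, 5.67 and 0.943. It was 14.4-fold lower in Eed-/- (11.8 to 17.9), 6.25-fold lower in Ezh2-/- (5.32 to 7.38) and 37.6-fold lower in Jarid2-/-, where the interval of 19.0 to 87.4 reflects the 8 counts. miR-6366 had 2065, 1772, 568 and 119 counts, or 86.8, 41.9, 17.7 and 14.0 CPM. It was 2.07-fold lower in Eed-/- (1.94 to 2.21), 4.90-fold in Ezh2-/- (4.46 to 5.39) and 6.19-fold in Jarid2-/- (5.14 to 7.51). The Eed-/- value lay just past 2-fold and was not called with the RPM denominators, where its log2 ratio was -0.33. For all 3 members the mutants lay below wild-type and Jarid2-/- was lowest.

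miR-6375 and miR-6398 went in opposite directions between mutants. miR-6375 had 85, 34, 383 and 13 counts in wild-type, Eed-/-, Ezh2-/- and Jarid2-/- (3.57, 0.804, 11.9 and 1.53 CPM). It was 3.34-fold higher in Ezh2-/- (2.64 to 4.28), 4.44-fold lower in Eed-/- (2.95 to 6.82), and 2.33-fold lower in Jarid2-/- (1.29 to 4.56), where it was not called. miR-6398, inside Macf1, had 99, 35, 335 and 3 counts (4.16, 0.828, 10.4 and 0.354 CPM). It was 2.51-fold higher in Ezh2-/- (2.00 to 3.17), 5.03-fold lower in Eed-/- (3.39 to 7.62) and 11.8-fold lower in Jarid2-/-, with 3.91 to 58.0 on 3 counts. By the main ratio these were the only members called higher in Ezh2-/-, where the median log2 ratio of all loci was -0.44. With TMM factors that median was 0.09, and 4 members were called higher there. For miR-6375 and miR-6398 alike the order was Ezh2-/-, then wild-type, then the other mutants.

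**Figure D5:**
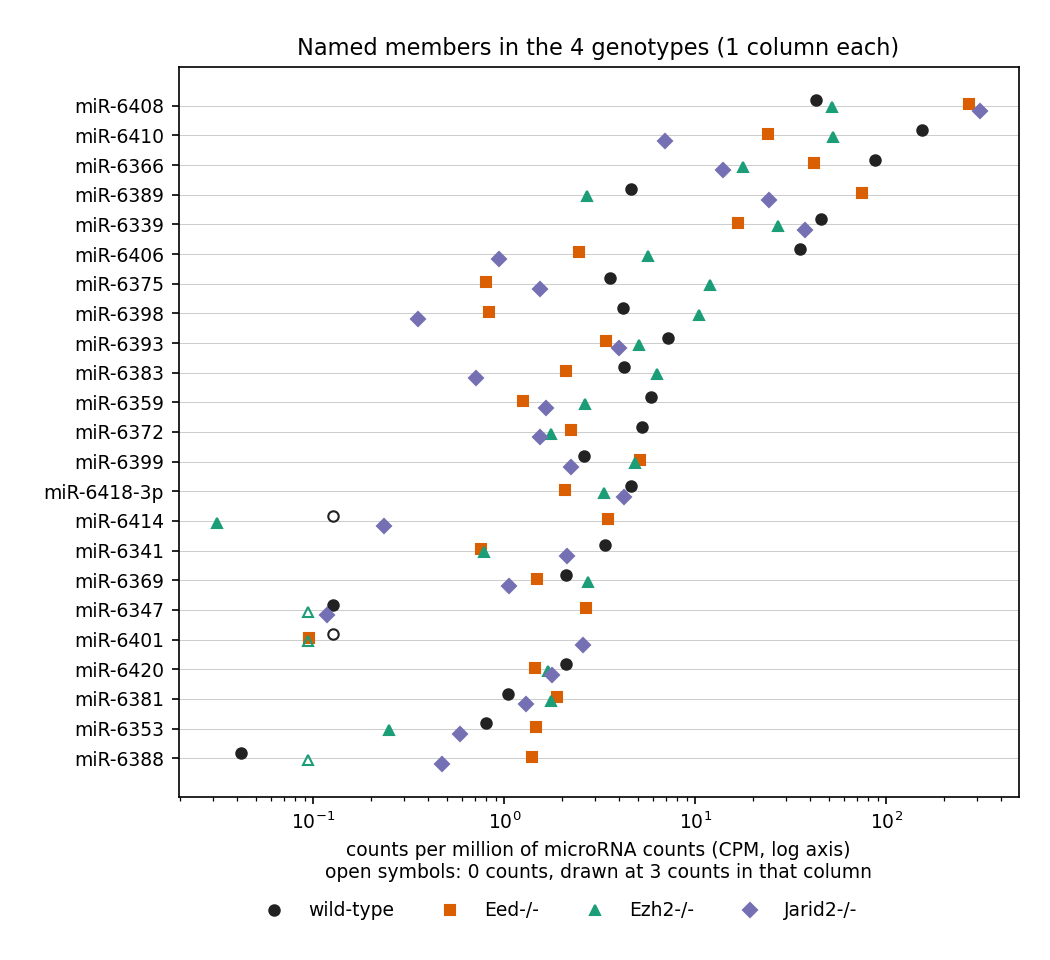
Levels of the 23 named members (CPM, log axis) in the 4 genotypes, 1 symbol per column, ordered by the highest level; open symbols are 0 counts drawn at 3 counts of that column. The symbols of miR-6408 form a low pair (42.7 and 52.2) and a high pair (272 and 310.4), and those of miR-6410 spread from 6.95 to 153.

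The other called members were lower in 1 or 2 mutants. miR-6339, within Tgm3, a transglutaminase gene, had 1078, 706, 866 and 317 counts, and its levels of 45.3, 16.7, 27 and 37.4 CPM varied less than those of the other 5 members in the plot of the make-up. It was 2.71-fold lower in Eed-/- (2.47 to 2.99). miR-6341, with the seed of the miR-130 family like miR-6389, had 80, 32, 25 and 18 counts and was 4.44-fold lower in Eed-/- (2.92 to 6.92) and 4.31-fold lower in Ezh2-/- (2.72 to 7.06). Its look-alike miR-130b-3p had log2 ratios of 0.58 and -1.42 there. miR-6372 had 125, 95, 56 and 13 counts and was 3.01-fold lower in Ezh2-/- (2.18 to 4.201) and 3.43-fold lower in Jarid2-/- (1.93 to 6.62), neither call holding with the RPM denominators. miR-6359 had 140, 53, 85 and 14 counts and was 4.70-fold lower in Eed-/- (3.40 to 6.57) and 3.57-fold lower in Jarid2-/- (2.06 to 6.69). miR-6383, with the seed of the miR-17 family, had 101, 89, 201 and 6 counts and was 6.003-fold lower in Jarid2-/- (2.66 to 16.7).

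The remaining 7 named members were not called in any mutant by the main ratio, though other settings called some of them. miR-6399, inside the translation factor gene Eif4g3, had 62, 217, 155 and 19 counts, with log2 ratios of 0.77, 0.69 and -0.15. It was called higher in Ezh2-/- with TMM factors, size factors or RPM denominators, and in Eed-/- with RPM denominators. miR-6393 had 172, 144, 162 and 34 counts, with ratios of -0.90, -0.44 and -0.72. With TMM factors the Ezh2-/- ratio of miR-6393 was 0.19, and with RPM denominators the Jarid2-/- ratio of miR-6399 was 0.21, so these signs were not fixed. miR-6418-3p had 109, 88, 106 and 36 counts, while the other arm, miR-6418-5p, had 1 count in all, so 1 arm of this hairpin made up nearly all of its reads. miR-6353, miR-6369, miR-6381 and miR-6420 stayed between 5 and 88 counts, with log2 ratios from -0.59 to 0.50, some of which changed sign with the scaling. Differences of this size were not told apart from no change, since no replicate spread was measured.

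Among the members below 50 counts the numbers allow little. miR-6395, the miR-328-3p look-alike, had 7, 6, 28 and 2 counts, and miR-6336 had 17 in wild-type and 0 in each mutant. With a pseudocount of 1 CPM neither passed 2-fold. Against a floor of 3 counts, miR-6336 was 10.1-, 7.64- and 2.02-fold lower in Eed-/-, Ezh2-/- and Jarid2-/-, with counting error of the 17 counts left out. miR-6390 had 2, 27, 12 and 8 counts and miR-6380 had 2, 24, 0 and 0. Without pseudocount they were 7.6-fold (1.91 to 65.9) and 6.75-fold (1.68 to 58.9) higher in Eed-/-, and neither was called. Of the numbers with 2 listed arms, miR-6392 had 3, 14, 11 and 5 counts of its 5p arm and 1, 0, 1 and 0 of its 3p arm, and both arms of miR-6416 were at 0.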

How the data were processed

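Per the labels, RNA of 18 to 40 nt was cut from gels and sequenced by SOLiD. Bowtie, cutadapt and the build mm9 come from the submitters' processing notes. Versions and settings are not given in those sources. Per the file headers, the authors deposited for each genotype the read count of every mature locus of miRBase release 20 and the same value in RPM. Columns were assigned by name, with HEED, EZH2 and the older name JUMONJI standing for the mutants and undiffCJ7, the least direct, for wild-type. No source says whether a column pools replicates. MicroRNA counts were 9.66% to 15.8% of the RPM denominators.

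From the deposited counts, CPM of the column total was computed. Ratios used a pseudocount of 1 CPM, a minimum of 10 counts in 1 of the 2 columns and a 2-fold rule, with no test, because each genotype has 1 column. Folds without pseudocount have exact conditional binomial intervals, and shares have Clopper-Pearson intervals, both at 95%. Folds against 0 took 3 counts in the column as the floor, with counting error of the other column left out. Conserved loci were those of 105 family numbers from a list written by hand. A microRNA left off that list, such as miR-322-5p or miR-532-5p, was not counted as conserved. Hairpins were folded with RNAfold 2.7.2. Ratios were also scaled by TMM factors (edgeR 4.0.16), by median-ratio size factors (DESeq2 1.42.0) and by the RPM denominators, each set to the wild-type total. The ratio rule was also run on counts simulated with counting error only, with known folds set at 200 loci above a minimum level. That simulation had no spread between libraries. It therefore does not bear on replicate spread, nor on finding changes at the low levels of most members. Named members had at least 50 counts in a column, were called in a contrast, or were among miR-6366, miR-6375, miR-6398 and miR-6406. The members and lists were chosen with earlier results of these data known. Chromatin and messenger RNA data were not analysed here.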

Additional observations from a re-analysis of the deposited data

Results flagged for a closer look

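For 2 members the mutants lay on opposite sides of wild-type. The log2 ratio of miR-6375 was -1.34 in Eed-/-, 1.5 in Ezh2-/- and -0.85 in Jarid2-/-. That of miR-6398 was -1.5 in Eed-/-, 1.15 in Ezh2-/- and -1.93 in Jarid2-/-. Each genotype is 1 column and the ratios share the wild-type column, so the difference between mutants was not tested.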

How the results depend on the processing

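No paired analysis was possible because each genotype has 1 count column, which carries no replicate number, and for the same reason no replicate could be left out. The 61 ratios of the named members were recomputed 512 times in all, and 470 kept their side of 2-fold, 27 lost the call and 15 gained one. Of the recomputed ratios 14 had the other sign, 8 with RPM denominators and 3 each with TMM and size factors, and 0 of these were called before or after. Most calls were lost with a pseudocount of 10 CPM. Gained calls included those of miR-6399, as given above, and of miR-6383, higher in Ezh2-/- with TMM factors. The call of miR-6372 in Ezh2-/- was lost under all 3 other scalings (-0.68 with TMM factors, -0.84 with size factors and -0.89 with RPM denominators), that of miR-6341 in Ezh2-/- with TMM factors (-0.93), and those of miR-6339 (-0.71), miR-6341 (-0.96) and miR-6375 (-0.98) in Eed-/- with RPM denominators.

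With a pseudocount of 0.1 CPM, 20 members were called in Eed-/- and 13 in Ezh2-/-, and with 10 CPM 5, 3 and 5 were called in Eed-/-, Ezh2-/- and Jarid2-/-. The main counts were 13, 7 and 10. The log2 ratio of the summed level, 0.16 in Eed-/-, became 0.030 with TMM factors, -0.067 with size factors and 0.87 with RPM denominators. In Ezh2-/- it went from -0.96 to -0.23, -0.44 and -0.52, and in Jarid2-/- from 0.018 to -0.10 with size factors and 0.51 with RPM denominators. Without miR-6408 it was -0.93, -1.20 and -1.69 in Eed-/-, Ezh2-/- and Jarid2-/-, without miR-6408 and miR-6389 -1.60, -1.21 and -2.01, and without miR-6410 0.73, -0.71 and 0.64. The last 2 choices, and those that left out shared starts of 10 bases or used an interval beyond 2-fold without pseudocount (13, 8 and 9 calls), were made after seeing the data. Why the scalings differ was not tested.

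Members with at least 1 count numbered 47, 46, 40 and 35 in wild-type, Eed-/-, Ezh2-/- and Jarid2-/-, and those with 100 counts 11, 10, 11 and 4. Scaled to the total of Jarid2-/-, 19 members had 10 counts in Eed-/- and 17 in Ezh2-/-, so depth sets much of that count. Over all names numbered below 500, in a conserved family or not, the median was 20.6, 5.33 and 12.02 CPM in Eed-/-, Ezh2-/- and Jarid2-/-. The conserved median was 22.4, 28.4 and 16.6 CPM in wild-type, Eed-/- and Ezh2-/- over loci with a count. With 1 value per name it was 19.5 and 12.3 CPM in Eed-/- and Ezh2-/-.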
